A study of Danio rerio with 4 samples.

Results

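Cells named here as primitive erythroid, after the globin-filled red cells of the first wave of embryonic blood formation, were followed through 4 single-cell RNA-seq libraries of GFP+ cells sorted from zebrafish trunks at 26 hpf. A cell barcode was taken as erythroid when 7 embryonic globin genes (hbae1.1, hbae1.3, hbae3, hbbe1.1, hbbe1.2, hbbe1.3 and hbbe2) made up at least 2% of its unique molecular identifiers (UMIs, which count captured mRNA molecules) and alas2 and slc4a1a together had 2 or more UMIs. Barcodes with at least 200 detected genes and no more than 35000 UMIs were considered, and 660 of 42951 met the rule, with 69 in the miR-128 mutant library, 207 in the csnk1a1 g3UTR library, 307 in the jag1b g3UTR library and 77 in the WT library. The cells were thus chosen by their measured levels of these globins, alas2 and slc4a1a, whose values are given below as a description and not as a result.

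All embryos carried the Tg(kdrl:GFP) zn1 transgene, in which the promoter of the endothelial receptor gene kdrl drives GFP, and cells were taken from dissected trunk tissue that contained the aorta-gonad-mesonephros region. The labels name the sorted cells as endothelial, so erythroid cells were a minor population within a gate set for vessels. The miR-128 mutant embryos (miR-128Δ/Δ) lacked miR-128-1 as well as miR-128-2. In csnk1a1 g3UTR and jag1b g3UTR embryos, CRISPR-Cas9 had mutated sites for miR-128 in the genomic 3′ UTR of csnk1a1 or of jag1b, and whether the sequenced embryos were themselves the injected ones is not given in the sources used here. WT embryos carried the transgene and none of these changes. Each group was 1 library of pooled embryos, so no difference between libraries has a replicate check, no test was run, and every difference below is between libraries rather than between conditions. The 95% intervals (exact Clopper-Pearson for shares, exact Poisson for sums, exact conditional binomial for ratios) cover counting error only.

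In zebrafish embryos, primitive red cells arise from mesoderm and enter the circulation before definitive blood stem cells emerge from the dorsal aorta. They take up transferrin-bound iron, pass it into the mitochondrion, build haem through a chain of enzymes that begins with Alas2 and ends with ferrochelatase, and load haem into embryonic alpha and beta globin chains. The transcription factors Gata1 and Klf1 drive much of this programme, the anion exchanger Slc4a1 and the spectrin skeleton shape the membrane, and zebrafish red cells keep their nuclei and still divide at early stages.

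The libraries differed in depth, from 69980329 UMIs in jag1b g3UTR to 144258953 in WT. Erythroid cells had a median of 14852, 14830, 8367 and 16711 UMIs in the miR-128 mutant, csnk1a1 g3UTR, jag1b g3UTR and WT libraries, against 9407, 7560.5, 5590 and 10316 UMIs in all other barcodes, and a median of 1940, 2201, 1846 and 2043 genes. The file headers name Cell Ranger 5.0.0 for the miR-128 mutant and WT matrices and 6.0.1 for both g3UTR matrices, so this version and the g3UTR groups cannot be told apart when either g3UTR library is set against WT. No erythroid barcode sequence occurred among the erythroid cells of another library. Mitochondrial transcripts had a median of 1.54%, 0.806%, 1.14% and 1.62% of UMIs in the 4 sets of erythroid cells, in the same order.

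The mutated genes were measured first. csnk1a1, the casein kinase 1 alpha gene, had 187, 188 and 195 CPM (UMIs in every 1000000 non-globin UMIs) in the erythroid cells of the miR-128 mutant, the csnk1a1 g3UTR and the jag1b g3UTR libraries, against 207 CPM in WT. The ratios to WT were 0.907 (0.720–1.14), 0.908 (0.762–1.09) and 0.944 (0.793–1.13), and all 3 intervals included 1. The Notch ligand gene jag1b had 0, 2 and 1 UMIs in the mutant libraries and 1 UMI in WT, too few for any comparison. r3hdm1, a host gene of miR-128, stood at 18.5, 27.6 and 39.1 CPM, against 21.0 CPM in WT, and arpp21, the other host, had 1, 9 and 7 UMIs, against 3 UMIs in WT. By qRT-PCR on pools of embryos, the paper reports raised csnk1a1 and jag1b transcripts in miR-128 mutants. Both genes were among candidates that it drew from bulk RNA-seq of sorted tail endothelial cells. By qRT-PCR at a slightly earlier stage, it reports the same rise for each gene in its own g3UTR mutant. In the erythroid cells here csnk1a1 did not show that rise, and jag1b could not be compared. A deleted intronic hairpin need not change the counts of its host gene. In the other barcodes of the jag1b g3UTR library, jag1b was 1.03 and csnk1a1 1.02 times WT. The levels in erythroid cells do not check the labels.

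Erythroid cells made up a larger share of both g3UTR libraries than of the WT library. The share was 0.718% (69 of 9604 barcodes, 0.559–0.908) in the miR-128 mutant library, 2.23% (207 of 9293, 1.94–2.55) in the csnk1a1 g3UTR library, 2.69% (307 of 11428, 2.398–2.9995) in the jag1b g3UTR library and 0.610% (77 of 12626, 0.482–0.762) in WT. Over WT, the ratio of shares was 3.65 (2.80–4.81) for csnk1a1 g3UTR and 4.40 (3.42–5.73) for jag1b g3UTR. It was 1.18 (0.839–1.65) in the miR-128 mutant, where the interval included 1 and the value lay just below 1, at 0.995, when cells over 35000 UMIs were kept. The share in csnk1a1 g3UTR was 0.829 (0.692–0.992) times that in jag1b g3UTR, and 1.04 (0.830–1.295) times once cells with 3 or more UMIs of 5 endothelial genes (kdrl, cdh5, clec14a, tie1 and egfl7) were left out, so the order of that pair did not hold. Without these cells the ratio of the miR-128 mutant over WT was 1.56 (1.05–2.32), an interval above 1. The sort for GFP sets which red cells enter a library, and its part in these shares was not tested.

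**Figure D1:**
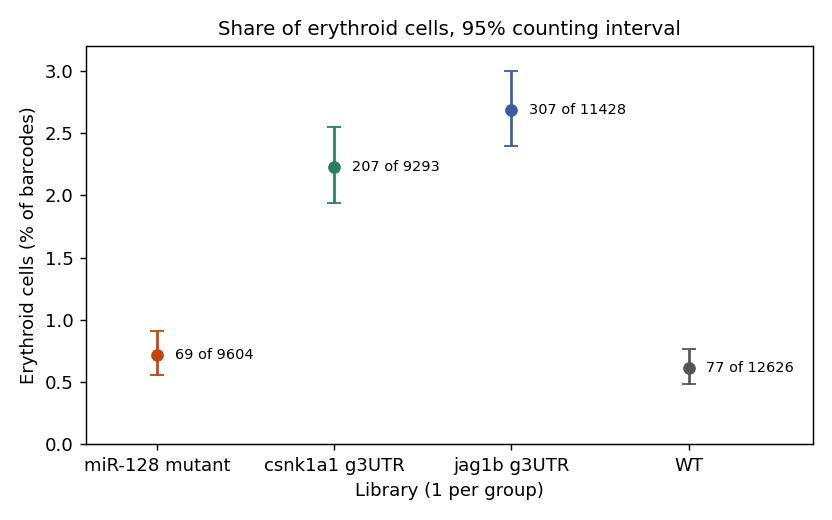
Share of gated barcodes (percent, y axis) that were erythroid in each of the 4 libraries, with 95% Clopper-Pearson intervals as bars and the counts printed above. The csnk1a1 g3UTR and jag1b g3UTR libraries stood at 2.23% and 2.69%, above 0.718% in the miR-128 mutant and 0.610% in WT, with no overlap between their intervals and the other two.

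Few cells lay near the globin threshold of the rule, and more lay near its limit for alas2 and slc4a1a. Just inside the globin threshold, with 2% to 3% of UMIs from the 7 globins, lay 3, 10 and 18 cells of the mutant libraries and 3 of WT, and just outside it, with 1% to 2%, lay 1, 17, 25 and 7 barcodes in the same order. With exactly 2 or 3 UMIs of alas2 and slc4a1a, 11, 18, 48 and 19 cells were just inside, while 5, 25, 74 and 53 barcodes had enough globin but 0 or 1 UMI of that pair. Those last barcodes were shallow, with medians of 7347, 3293, 2110 and 1359 UMIs. The limit for this pair thus left out 53 barcodes beside 77 erythroid cells in WT, and 5 beside 69 in the miR-128 mutant.

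A part of the erythroid cells also carried endothelial transcripts. Cells with 3 or more UMIs of the 5 endothelial genes numbered 11 of 69 (15.9%) in the miR-128 mutant library, 56 of 207 (27.1%) in the csnk1a1 g3UTR library, 128 of 307 (41.7%) in the jag1b g3UTR library and 28 of 77 (36.4%) in WT. Globin took a median of 15.3%, 17.2%, 17.9% and 16.0% of the UMIs of these cells, against 39.4%, 25.1%, 23.6% and 33.7% in the remaining erythroid cells. The summed level of 8 endothelial markers in erythroid cells was 904, 945 and 1692 CPM in the mutant libraries and 1166 CPM in WT, against 4711, 6697, 8793 and 4596 CPM in all other barcodes. Relative to WT the endothelial sum was thus lower in miR-128 mutant cells (0.776, 0.702–0.856) and csnk1a1 g3UTR cells (0.811, 0.753–0.874) and higher in jag1b g3UTR cells (1.45, 1.35–1.56). Of the 8 single genes, 1, 1 and 4 had a ratio to WT above 1, with median log2 ratios of -0.41, -0.51 and -0.18. In jag1b g3UTR the sum and the median thus gave different readings, with kdrl at 2.25 times WT. The part of endothelial transcripts in the differences between libraries was not tested beyond leaving out the cells with 3 or more such UMIs.

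Further transcripts of other cell types were found in the erythroid cells of all libraries. Cells with 5 or more neutrophil UMIs numbered 7 of 69 (10.1%) for the miR-128 mutant, 8 of 207 (3.86%) for csnk1a1 g3UTR and 26 of 307 (8.47%) for jag1b g3UTR, against 17 of 77 (22.1%) for WT, which had the largest share. The neutrophil list of 5 genes summed to 263, 149 and 1218 CPM in the miR-128 mutant, the csnk1a1 g3UTR and the jag1b g3UTR libraries, against 397 CPM in WT, and 1161 of the 1854 UMIs of lyz, the lysozyme gene, in jag1b g3UTR came from 1 cell. The macrophage list of 6 genes stood at 2.84, 7.69 and 99.3 CPM, against 6.63 CPM in WT, with 127 UMIs of mfap4 in 1 jag1b g3UTR cell. The notochord and mesenchyme list was at 9.94, 10.4 and 274 CPM, against 5.53 CPM in WT, and 305 of 576 col2a1a UMIs were again in 1 cell. In the miR-128 mutant, the neural list stood at 258 CPM, against 93.9 CPM in WT, and all 79 UMIs of the neuronal gene elavl3 were in 1 cell. Epidermal markers (2.84, 31.2 and 158 CPM, against 12.2 CPM in WT) followed the same order as the macrophage list, whereas muscle markers (29.8, 17.6 and 40.5 CPM, against 32.1 CPM in WT) and thrombocyte markers (51.1, 33.5 and 26.2 CPM, against 29.8 CPM in WT) stayed low. Scrublet scores were used as an alternative guard against doublets. A set part of all barcodes, those with the highest scores, was marked, at 7.83%, 7.5%, 9.2% and 10.3% in the miR-128 mutant, csnk1a1 g3UTR, jag1b g3UTR and WT libraries. This part held 1, 5, 9 and 3 erythroid cells, or 1.4%, 2.4%, 2.9% and 3.9% of the erythroid cells, a smaller share than of all barcodes in each library. It held only 1, 5, 6 and 2 of the 11, 56, 128 and 28 erythroid cells with 3 or more endothelial UMIs. Most erythroid cells with endothelial transcripts were thus not marked by this score.

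Globin dominated the transcriptome of many of these cells, and its share ranged widely within every library. The 15 globin genes in the files took between 3.1% and 73.3% of the UMIs of each miR-128 mutant cell (median 33.2%), 2.28% to 67.2% in csnk1a1 g3UTR cells (median 22.7%), 2.31% to 55.4% in jag1b g3UTR cells (median 21.3%) and 2.05% to 71.2% in WT (median 22.3%). The middle 50% of cells spanned 21.7% to 48.7% among miR-128 mutant cells, 12.6% to 36.8% among csnk1a1 g3UTR cells, 11.7% to 29.6% among jag1b g3UTR cells and 8.60% to 46.3% in WT, so all 4 ranges overlapped. The rule sets the low end of each range.

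**Figure D2:**
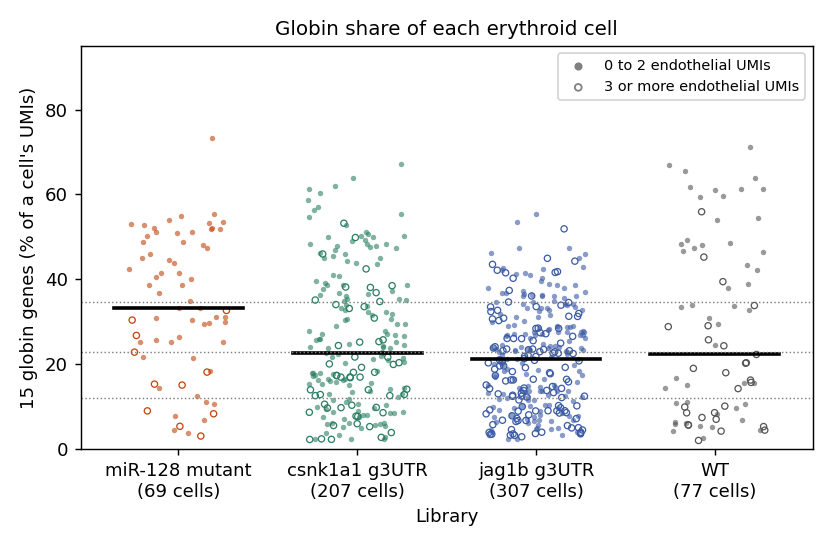
Percent of UMIs from the 15 globin genes (y axis) in each erythroid cell of the 4 libraries; each dot is a cell, black bars are medians, open circles are cells with 3 or more endothelial UMIs, and dotted lines are the limits of 4 bins of globin share at 12.2%, 23.0% and 34.8%. The cells ran from about the 2% threshold to over 55% in every library, and the open circles lay mostly in the lower part.

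hbbe3, a beta-type embryonic globin that was not in the rule, was the most abundant globin in every library. It took 8.38%, 7.76% and 7.16% of UMIs in the miR-128 mutant, the csnk1a1 g3UTR and the jag1b g3UTR libraries, against 7.14% in WT, and at least 1 of its UMIs was found in 100%, 99.0% and 99.7% of the cells, against 96.1% in WT. The alpha-type hbae3 had 6.13%, 5.42% and 5.24% of UMIs, against 5.34% in WT, which placed it second in the g3UTR libraries and behind hbae1.1 in the miR-128 mutant and WT. These levels differed little between libraries beside the spread from cell to cell.

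The makeup of the globin pool differed most in the tandem copies. hbae1.1 made up 20.03% and 17.8% of globin UMIs in the miR-128 mutant and csnk1a1 g3UTR libraries, 12.5% in jag1b g3UTR and 19.5% in WT. This lower share in jag1b g3UTR was present at every globin level: from the bin of cells with the least globin to the bin with the most, it was 11.9%, 11.1%, 12.4% and 13.4% in jag1b g3UTR, against 17.7%, 21.5%, 18.2% and 19.9% in WT. hbbe1.2 made up 7.68%, 5.14% and 5.02% of globin UMIs in the mutant libraries, against 7.36% in WT. hbae1.1 and hbae1.3, and likewise hbbe1.1, hbbe1.2 and hbbe1.3, are near-identical neighbours, and the way reads were divided among such copies can move these shares. Alpha chains together made up 40.6%, 41.6% and 38.6% of globin UMIs, against 43.0% in WT.

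**Figure D3:**
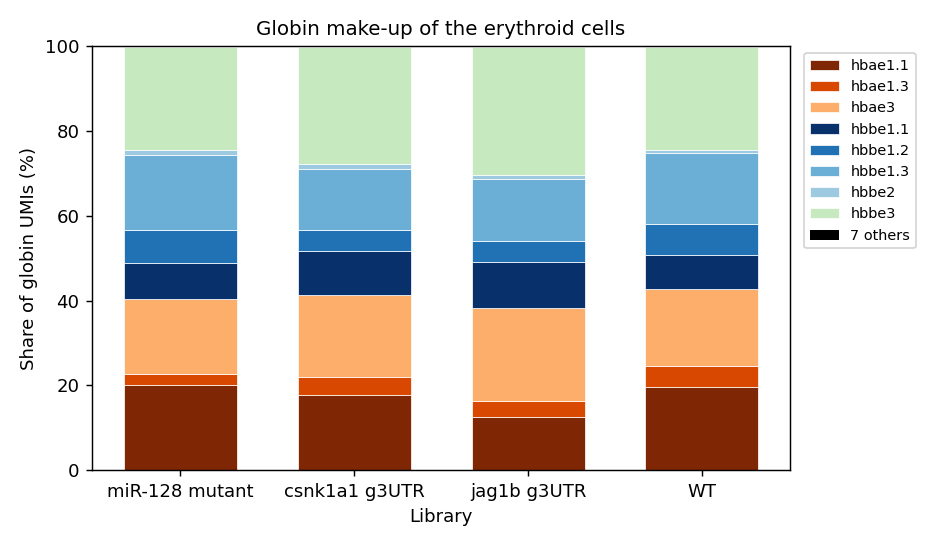
Stacked bars of the percent of globin UMIs (y axis) from each of 8 globin genes and the 7 others together, summed over the erythroid cells of each library. hbbe3 was the largest part in all 4 libraries, at 24.3% to 30.1%, and hbae1.1 was smaller in jag1b g3UTR (12.5%) than in the other libraries (17.8% to 20.03%).

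The minor embryonic globins and those of later stages were scarce. hbae5 took 0.0210%, 0.0235% and 0.0187% of UMIs, against 0.0179% in WT, and hbae4 0.0386%, 0.0369% and 0.0350%, against 0.0265% in WT. The 4 listed globin genes of larval and adult stages (hbaa1, hbaa2, hbba1 and hbba2) gave 236, 29 and 61 UMIs in all in the miR-128 mutant, the csnk1a1 g3UTR and the jag1b g3UTR libraries, against 5 UMIs in WT. In the miR-128 mutant, 183 of those came from 1 cell, in which they were 2.07% of its globin. Any of these 4 genes was found in 10, 7, 10 and 5 cells. hbaa1.2, counted apart, had 11, 38 and 79 UMIs, against 4 UMIs in WT. Globins of the embryo thus made up nearly all globin in these cells.

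Globin UMIs also turned up outside the erythroid cells, at a low level that differed between libraries. In barcodes with 5 or more UMIs of the endothelial genes, globins took 0.0127%, 0.0463% and 0.0627% of UMIs in the miR-128 mutant, the csnk1a1 g3UTR and the jag1b g3UTR libraries, against 0.0166% in WT, and 42.0%, 86.2% and 79.6% of those barcodes had a globin UMI, against 47.7% in WT. The proportions were not those of the erythroid cells: hbbe2 made up 17.9%, 7.77% and 4.27% of endothelial globin UMIs, against 14.6% in WT, but 1.24%, 1.04% and 1.12% of erythroid globin UMIs, against 0.917% in WT. hbae5 stood apart in the same way, with 6.61%, 1.93% and 1.05% of endothelial globin UMIs, against 4.12% in WT, and no more than 0.0836% of erythroid globin UMIs in any library. In every library both genes thus took a larger part of the globin of endothelial barcodes than of erythroid cells.

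Outside the rule, the genes with the largest fold of erythroid cells over all other barcodes included genes of red cell enzymes, iron uptake, haem synthesis, the membrane and erythroid transcription. Ordered by the smallest fold over the 4 libraries (with 5 CPM added), the first was cahz, the red cell carbonic anhydrase of zebrafish (LL0000004795), at 1134, 1080 and 1047 CPM in the miR-128 mutant, the csnk1a1 g3UTR and the jag1b g3UTR libraries and 891 CPM in WT. It was 188-, 137- and 118-fold above the other barcodes in the mutant libraries and 145-fold above them in WT. tfr1a, the transferrin receptor that brings iron into red cells (LL0000030217), came next at 114- to 141-fold, and epb41b, a band 4.1 protein of the membrane skeleton (LL0000009687), at 101- to 115-fold. hemgn, a nuclear protein of erythroid cells, was 67.3- to 157-fold higher, and blvrb, a biliverdin reductase of red cells, 57.3- to 89.1-fold. Further genes among the leading 25 included the haem enzymes hmbsb, hmbsa, cpox, urod and fech, the mitochondrial iron importer slc25a37, the Rh glycoprotein gene rhag, the adducin gene add2 and the erythroid regulators gata1a, klf1 and klf17. si:ch211-227m13.1, rfesd, si:ch211-250g4.3, tmem14ca, XLOC_020187, tubb1, nmt1b, hdr and nt5c2l1 made up the rest.

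Of 1249 genes with 50 or more UMIs in the erythroid cells of every library, 242 (19.4%) were at least 2-fold higher than in all other barcodes in all 4 libraries and 123 (9.85%) were at most 0.5-fold. Against this background, the haem synthesis list had 9 of 9 measured genes at least 2-fold higher, the iron list 6 of 7, the membrane and skeleton list 6 of 7 with 1 lower, the red cell enzyme list 5 of 7 and the regulator list 8 of 11 with 1 lower. The minimum of 50 UMIs, with alas2 and slc4a1a left out, kept 9 of 12 haem, 7 of 18 iron and 7 of 17 membrane genes. It kept 7 of 16 enzyme and 11 of 23 regulator genes. This minimum, set on the erythroid cells, favours genes that are high there, so these counts are a description. Summed over 11 genes, without alas2, haem synthesis stood at 6373, 7332 and 7856 CPM in the miR-128 mutant, the csnk1a1 g3UTR and the jag1b g3UTR libraries and 5378 CPM in WT, against 217, 259.9, 262 and 228 CPM in the other barcodes of those libraries. The S phase list had 8 of 15 genes at least 2-fold higher and the G2/M list 6 of 15, and none of either was lower past that limit. All 4 measured endothelial genes were at most 0.5-fold. Of the single measured progenitor and clearance genes, neither passed 2-fold in all libraries, while 1 of the neutrophil list (2 measured) and the measured neural gene were at most 0.5-fold in all 4.

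Abundant genes of these lists varied in how far they set the cells apart. prdx2, the peroxiredoxin that removes hydrogen peroxide in red cells, was at 3901, 3069 and 2680 CPM in the miR-128 mutant, the csnk1a1 g3UTR and the jag1b g3UTR libraries and 3066 CPM in WT, 12.2-, 10.9- and 10.2-fold above the other barcodes in the mutant libraries. The ferritin heavy chain gene fth1a reached 4319, 5361 and 5164 CPM, against 3935 CPM in WT, 9.65-, 10.9- and 11.79-fold above the other barcodes in the mutant libraries. A second ferritin gene, fthl27, was at 1177, 959 and 813 CPM in the erythroid cells, against 1353 CPM in WT, and in the other barcodes at 1731, 1118 and 925 CPM, against 1510 CPM in WT. fthl27 was thus lower in erythroid cells than in the other barcodes of every library.

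The regulators were seen in a minority of cells once depth was set equal. Thinned to 2000 UMIs a cell, with 7, 17, 33 and 8 shallower erythroid cells left out, gata1a had a UMI in 25.8%, 25.3% and 32.9% of erythroid cells of the miR-128 mutant, the csnk1a1 g3UTR and the jag1b g3UTR libraries, against 31.9% in WT, and without thinning in 76.8%, 68.1% and 63.5%, against 71.4% in WT. Among endothelial barcodes, with medians of 9207, 7248, 5543.5 and 10316 UMIs, the thinned share of gata1a was 0.109% to 0.254%. The share in erythroid cells was thus far above it, and the source of the UMIs in endothelial barcodes was not tested. klf1 behaved alike, with thinned shares of 12.9%, 19.5% and 25.6%, against 18.8% in WT. cahz was found in 72.6%, 69.5% and 66.4% of thinned erythroid cells, against 55.1% in WT, and in 0.0298% to 0.483% of thinned endothelial barcodes.

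Markers of blood progenitors were partly shared. myb, a transcription factor gene of progenitors, had a UMI in 3.23%, 11.1% and 12.8% of thinned erythroid cells, against 11.6% in WT, and in 0.195% to 0.483% of endothelial barcodes. gata2b, which marks haemogenic endothelium, had none in any thinned erythroid cell. runx1 was at 1.61%, 0.526% and 0%, against 1.45% in WT, close to the 0.47% to 1.04% of endothelial barcodes. Of the 9, 47, 44 and 12 erythroid cells with 2 or more myb UMIs, 9, 41, 32 and 12 also had gata1a. In the paper, gata1a, alas2 and cahz mark a cluster of nascent progenitors of these libraries, described as primed for lymphoid and erythroid fates. The paper reports that cluster as expanded in both g3UTR mutants. How far it overlaps the cells chosen here was not tested. Over all UMIs, the 6 progenitor genes summed to 684, 676 and 538 CPM, against 714 CPM in WT. lmo2, which is also in the list of erythroid regulators, was most of this sum in csnk1a1 g3UTR (519 CPM), jag1b g3UTR (376 CPM) and WT (582 CPM).

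Between libraries, the comparison asks whether loss of miR-128, or of its sites in csnk1a1 or jag1b, goes with another transcript makeup of the red cells. Genes with 50 or more UMIs in the 2 libraries together were compared, with globins, alas2 and slc4a1a left out, and a ratio of at least 2 or at most 0.5 counted as past 2-fold. All 3 mutant libraries were set against the same WT library and its 77 cells, so these comparisons are not independent. The median log2 ratio of all genes compared was -0.03 for the miR-128 mutant, 0.02 for csnk1a1 g3UTR and 0.13 for jag1b g3UTR over WT, and -0.16 for csnk1a1 g3UTR over jag1b g3UTR.

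The jag1b g3UTR cells had the largest share of genes past 2-fold against WT. Of 5142 genes, 551 (10.7%) had a ratio of at least 2 and 110 (2.14%) of at most 0.5, or 12.9% past 2-fold either way. With the library sizes set by the median of ratios these counts were 415 and 172, and with all UMIs as the total 699 and 73. Leaving out the cells with 3 or more endothelial UMIs gave 410 and 49. In the other barcodes of the same libraries, 215 of the 551 higher genes also had a ratio of at least 2 and 538 were above 1. Over all 5142 genes the median log2 ratio there was 0.16, so most genes were above 1 in those barcodes. They also held barcodes with 2% or more globin that missed the rule, 74 in jag1b g3UTR and 53 in WT. A part of this difference was thus also seen outside the cells of the rule.

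Within it, several iron and haem genes of the erythroid cells were higher in jag1b g3UTR. tfr1a had 1260, 2139 and 3326 CPM in the miR-128 mutant, the csnk1a1 g3UTR and the jag1b g3UTR libraries, against 1259 CPM in WT, which gave jag1b g3UTR over WT 2.64 (2.48–2.82) and csnk1a1 g3UTR over WT 1.70 (1.59–1.82). slc25a37 (mitoferrin, which carries iron into mitochondria) had 387.5, 505 and 880 CPM, against 322 CPM in WT, a ratio of 2.74 (2.42–3.11) for jag1b g3UTR. fech (ferrochelatase, which puts iron into haem) had 125, 228 and 338 CPM, against 126 CPM in WT, a ratio of 2.68 (2.20–3.29). For each of these genes jag1b g3UTR was highest, csnk1a1 g3UTR came next, and the miR-128 mutant and WT were lowest.

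Other steps of the pathway were divided. hmbsb, which makes the linear tetrapyrrole, had 583, 765 and 988 CPM, against 448 CPM in WT (2.21, 1.98–2.46, for jag1b g3UTR). abcb10, a mitochondrial transporter needed for haem synthesis, was 2.22 (1.81–2.74) and ppox, the protoporphyrinogen oxidase gene, 2.26 (1.57–3.34) times the WT level in jag1b g3UTR. In contrast, alad (541, 499.6 and 469.6 CPM, against 357 CPM in WT), uros (194.5, 149 and 168 CPM, against 134 CPM in WT) and urod (2552, 2450 and 2449 CPM, against 2036 CPM in WT) were highest in the miR-128 mutant, and tmem14ca (998, 1349 and 1285 CPM, against 875 CPM in WT) in csnk1a1 g3UTR. All 4 of these were lowest in WT. Of 11 haem genes compared, 4 (36.4%) were past 2-fold higher, beside 10.7% of all genes, and none lower, and the median log2 ratio was 0.55, beside 0.13 over all genes. Of 13 iron genes, 4 (30.8%) were past 2-fold higher, among them aco1 (2.19, 1.69–2.88) and ireb2 (2.03, 1.17–3.72), which encode the RNA-binding sensors of cellular iron, and the median was 0.39. tfr1a and fech were also higher in the few UMIs of the other barcodes of jag1b g3UTR, by 5.66 and 4.41 times. Free RNA from the more numerous red cells may enter there as well, and its part was not tested.

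Of 10 membrane genes, 3 were past 2-fold higher in jag1b g3UTR (10.7% of all genes were) and none lower. rhag, the Rh-associated glycoprotein gene, had 148, 241 and 333 CPM, against 144 CPM in WT (2.32, 1.92–2.82), and ank1a, the ankyrin that ties the anion exchanger to spectrin, 17.0, 31.2 and 43.7 CPM, against 15.5 CPM in WT (2.82, 1.60–5.36). kel, a blood group antigen gene, was the third membrane gene past 2-fold (2.14, 1.36–3.498) and had a ratio of 0.834 when each cell weighed the same. sptb, the beta spectrin gene, had 413, 576 and 863 CPM, against 458 CPM in WT (1.89). The median log2 ratio over the membrane genes was 0.87, and 1.53 in the other barcodes. There rhag was 1.997, ank1a 3.41, kel 3.49 and sptb 2.84 times WT, and the part of free RNA was not tested.

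Among 16 regulators, 3 (18.8%) were past 2-fold higher in jag1b g3UTR, beside 10.7% of all genes, and none lower (median 0.51). epor, the erythropoietin receptor gene, had 124, 172 and 266 CPM, against 96.2 CPM in WT (2.77, 2.20–3.51), and gfi1b, a repressor needed for red cell maturation, 49.7, 104 and 149 CPM, against 55.3 CPM in WT (2.69, 1.99–3.698). stat5b, which acts below the erythropoietin receptor, had 7.10, 15.8 and 23.0 CPM, against 8.84 CPM in WT (2.60, 1.22–6.35). In the other barcodes epor was 5.72, gfi1b 5.98 and stat5b 2.18 times WT, and the regulator median was 0.98. The part of free RNA there was not tested. gata1a itself was at 309, 195 and 256 CPM, against 224 CPM in WT, with a ratio of 1.14 (0.971–1.35) in jag1b g3UTR, an interval that includes 1. After thinning, gfi1b had a UMI in 0%, 10.0% and 17.2% of erythroid cells, against 7.25% in WT, and epor in 11.3%, 22.1% and 30.7%, against 11.6% in WT, so jag1b g3UTR was highest at equal depth too.

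Red cell enzymes did not share this order. prdx2 in jag1b g3UTR was 0.874 (0.835–0.915) times WT, and the antioxidant genes txn (703, 555 and 464 CPM, against 651 CPM in WT) and sod1 (170, 125 and 93.4 CPM, against 123 CPM in WT) were lowest in jag1b g3UTR. gpx4a, a glutathione peroxidase gene, had 5.68, 4.52 and 9.66 CPM, against 46.4 CPM in WT, a ratio of 0.208 (0.117–0.359) in jag1b g3UTR, and in the other barcodes it was 0.234, 0.233 and 0.286 times the WT level in the 3 mutant libraries. It was the single gene past 2-fold among 11 enzymes, whose median log2 ratio was -0.19. In the list of mitochondrial and organelle clearance, 2 of 9 genes (22.2%, beside 10.7% of all genes) were past 2-fold higher, bnip3la, a mitophagy receptor gene, and xpo7, a nuclear exporter gene.

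Genes that mark erythroid cells were past 2-fold about as often as all genes. Of the 242 genes at least 2-fold higher in erythroid cells of every library, 23 had a ratio of at least 2 in jag1b g3UTR over WT and 5 of at most 0.5, or 11.6% past 2-fold, beside 12.9% of all genes. Their median log2 ratio was 0.16, beside 0.13 over all genes. Some of the ratios differed with globin share, by which the cells were divided into 4 bins of equal number. From the lowest to the highest bin, tfr1a was 2.996, 3.17, 1.63 and 2.55 times WT. slc25a37 was 2.09, 2.80, 3.07 and 3.30 times WT, and epor 2.53, 7.12, 2.27 and 2.55 times. In the miR-128 mutant tfr1a was 0.715, 0.497, 0.775 and 1.18 times WT in these bins, although its level over all cells was 1260 CPM, against 1259 CPM in WT.

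Of 61 genes compared over the 5 erythroid lists, 14 (23.0%) had a ratio of at least 2 in jag1b g3UTR, beside 10.7% of all genes, and 1 (1.64%), gpx4a, of at most 0.5, beside 2.14%. Together 15 were past 2-fold, and 12 without the cells of 3 or more endothelial UMIs. Over 11 haem genes without alas2, the sums were 6373, 7332 and 7856 CPM in the miR-128 mutant, the csnk1a1 g3UTR and the jag1b g3UTR libraries and 5378 CPM in WT, or 1.185, 1.36 and 1.46 times WT, with 0.953, 1.14 and 1.15 in the other barcodes. Membrane genes summed to 1.05, 1.31 and 1.76 times WT and to 0.785, 0.991 and 0.949 times in the other barcodes. The median log2 ratio of single membrane genes was 0.30, 0.50 and 0.87 in erythroid cells and -0.11, 1.04 and 1.53 in the others. The sum and the median thus gave different readings for the other barcodes. Iron genes stood at 1.095, 1.24 and 1.41 times WT, red cell enzymes at 1.23, 1.004 and 0.914 and regulators at 0.974, 1.04 and 1.19. Apart from the enzymes, the order of these 5 lists was, from low to high, the miR-128 mutant, csnk1a1 g3UTR and then jag1b g3UTR.

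**Figure D4:**
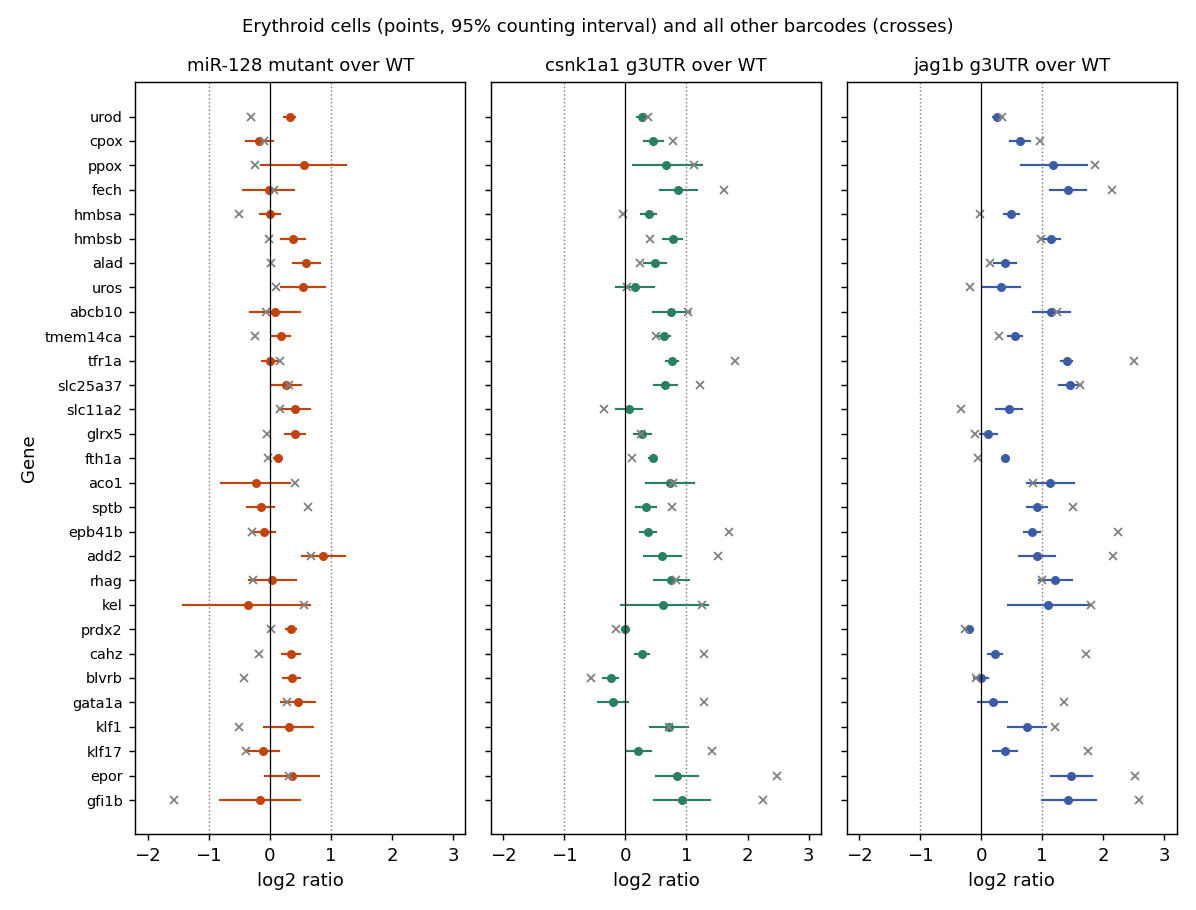
Log2 ratios to WT (x axis) of 29 genes of the erythroid lists in the miR-128 mutant, the csnk1a1 g3UTR and the jag1b g3UTR libraries (panels); points with 95% counting intervals are erythroid cells, grey crosses are all other barcodes, and dotted lines mark 2-fold. In jag1b g3UTR tfr1a, slc25a37, fech, epor and gfi1b lie to the right of the upper dotted line, and in the miR-128 mutant the points gather around 0.

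In csnk1a1 g3UTR, 148 of 4673 genes (3.17%) had a ratio to WT of at least 2 and 196 (4.19%) of at most 0.5, or 7.36% past 2-fold either way. The balance depended on the weighting, with 327 and 230 when each cell weighed the same and 228 and 159 when the cell with the most UMIs of each gene was left out, an alternative chosen after the data were seen. The lower genes held 3 of 8 endothelial markers. Without cells of 3 or more endothelial UMIs the counts were 139 and 51, again among fewer genes. Of 59 genes compared over the 5 erythroid lists, 3 passed 2-fold: ank1a was higher (2.02, 1.12–3.88), and gpx4a and klf6a, a zinc finger gene, were lower. That was 1.69% higher, beside 3.17% of all genes, and 3.39% lower, beside 4.19%. Among 11 haem genes, 10 had a ratio above 1 and none passed 2-fold, with a median log2 ratio of 0.48, and the medians were 0.24 for 12 iron genes, 0.50 for 10 membrane genes, -0.01 for 11 enzymes and 0.21 for 15 regulators.

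The miR-128 mutant had the smallest share of genes past 2-fold against WT, with 40 of 2878 genes (1.39%) at a ratio of at least 2 and 83 (2.88%) at most 0.5, or 4.27% past 2-fold either way. Without cells of 3 or more endothelial UMIs the counts were 36 and 25, so fewer genes were lower without them. A single gene of 50 compared over the 5 erythroid lists passed 2-fold (2% higher, beside 1.39% of all genes). It was tmod4, a tropomodulin that caps actin filaments, at 82.3 CPM, against 39.8 CPM in WT (2.07, 1.34–3.23). All 9 red cell enzymes compared had a ratio above 1, with a median log2 ratio of 0.35, prdx2 at 1.27 (1.21–1.34) and cahz at 1.27. add2, the adducin gene, was 1.83 (1.44–2.34), alad, the haem enzyme after Alas2, 1.52 (1.303–1.76) and gata1a 1.38 (1.13–1.68) times WT. The haem and iron lists had 0 of 11 and 0 of 8 genes past 2-fold, with median log2 ratios of 0.19 and 0.20, and the regulators 0 of 14, with a median of -0.12.

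Between the g3UTR libraries, both listed with the same Cell Ranger version, csnk1a1 g3UTR over jag1b g3UTR had 39 of 6123 genes (0.637%) at a ratio of at least 2 and 403 (6.58%) at most 0.5, or 7.22% past 2-fold either way. With library sizes from the median of ratios the counts were 72 and 277. No haem (11), iron (13) or membrane (10) gene was past 2-fold, with medians of -0.18, -0.41 and -0.46 beside -0.16 over all genes. cbfa2t3, a corepressor gene of blood cells, had 64.7 CPM in csnk1a1 g3UTR, against 140 CPM in jag1b g3UTR (0.462, 0.376–0.566). bnip3la was also lower, at 0.483 times. The 4 neutrophil genes compared were all past 2-fold lower in csnk1a1 g3UTR, and several of the lowest ratios of this comparison (mfap4 with 1 UMI, against 127 in jag1b g3UTR, si:ch73-23l24.1 with 0, against 258, and col2a1a with 11, against 576) came largely from single jag1b g3UTR cells.

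Some histone genes had high ratios over WT in erythroid and in other cells, and those outside the 10 highest ratios, hist1h4l and zgc:165555, were chosen after their values were seen. hist1h4l (LL0000039825), a histone H4 gene, had 935 CPM in erythroid cells of jag1b g3UTR, against 129 CPM in WT (7.23, 6.002–8.79), and the ratio in the other barcodes was 7.50. zgc:165555, another H4 gene, had 955 CPM in jag1b g3UTR, against 195 CPM in WT, at 4.91 in erythroid cells and 4.50 in the others. In csnk1a1 g3UTR their ratios to WT were 2.89 and 3.41. hist1h2a2 had 112 UMIs in 83 erythroid cells of jag1b g3UTR, against 1 UMI in WT, and hist1h2a6 was 5.85 times higher in csnk1a1 g3UTR than in WT. In the miR-128 mutant the H3 gene zgc:113984 stood out, with 218 UMIs, against 11 in WT (25.5), and 13.1 in the other barcodes. For both H4 genes in jag1b g3UTR and for zgc:113984 in the miR-128 mutant the difference was thus present outside the erythroid cells too.

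Among the remaining genes with extreme ratios, some lay on the same side of 1 in the other barcodes and some did not. rn7sk, a small nuclear RNA, had 299 UMIs in csnk1a1 g3UTR, against 20 in WT (6.12, 3.89–10.2), and 8.38 in the other barcodes. LOC564610 (LL0000018151) had 189 UMIs in 110 cells of jag1b g3UTR, against 1 UMI in WT, with 29.8 in the other barcodes, and si:ch211-113a14.15 had 235 UMIs in 116 cells, against 2 UMIs, with 18.2. CABZ01079276.1 had 6 UMIs in 4 cells of the miR-128 mutant and 41 UMIs in csnk1a1 g3UTR, against 308 UMIs in 44 cells of WT, with ratios of 0.0250 (0.00911–0.0551) and 0.0545 in erythroid cells and of 0.0732 and 0.126 in the others. In contrast, crip1 was at 0.227 in jag1b g3UTR over WT and 1.21 in the other barcodes, mpx at 0.181 in csnk1a1 g3UTR over WT and 1.41 in the others, and pbx1a at 0.1998 in the miR-128 mutant over WT and 1.07 in the others. si:ch211-113a14.18 was higher in erythroid cells of the miR-128 mutant, at 3.585, but 0.816 in the others.

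Heat shock transcripts in the miR-128 mutant came largely from few cells. hsp70l had 92 UMIs, against 4 in WT (29.5, 11.2–111), and 47 of them were in 1 cell, and hsp70.1 had 99 UMIs, against 9 in WT (14.1), with 57 in 1 cell. Lower in the miR-128 mutant were LOC100535857, with 10 UMIs, against 213 in WT, and grin2ca, with 7, against 123, where 169 and 61 of the WT UMIs were in 1 cell each. si:ch211-250g4.3, which leads in erythroid cells against all others, had 564, 849 and 1486 CPM in the miR-128 mutant, the csnk1a1 g3UTR and the jag1b g3UTR libraries, against 1701 CPM in WT, and its ratio to WT was 0.331 (0.296–0.370) in the miR-128 mutant and 0.499 in csnk1a1 g3UTR. In WT, 1076 of its 1539 UMIs were in the bin of cells with the least globin.

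The erythroid cells carried transcripts of dividing cells in all libraries, and G2/M genes were higher in the g3UTR libraries. mki67, a nuclear protein of cycling cells, had 297, 553 and 642 CPM in the miR-128 mutant, the csnk1a1 g3UTR and the jag1b g3UTR libraries, against 298 CPM in WT. The ratio to WT was 1.85 in csnk1a1 g3UTR cells and 2.15 in jag1b g3UTR, and after thinning mki67 had a UMI in 24.2%, 48.4% and 44.9% of erythroid cells, against 31.9% in WT, and in 7.09%, 11.1% and 13.7% of endothelial barcodes, against 8.76% in WT. Of 43 G2/M genes compared in jag1b g3UTR, 13 (30.2%, beside 10.7% of all genes) were past 2-fold higher and 35 were above 1 (median log2 0.66). They included cenpf, a kinetochore protein gene, at 73.8, 140 and 225 CPM, against 72.9 CPM in WT (3.08), and bub1, a spindle checkpoint kinase gene, at 18.5, 28.9 and 44.2 CPM, against 12.2 CPM in WT (3.63). In csnk1a1 g3UTR 4 of 42 (9.52%, beside 3.17% of all genes) were past 2-fold higher (bub1, kif11, cdc20 and g2e3) and 38 were above 1 (median 0.45). In the miR-128 mutant cdc20 was past 2-fold higher and ube2c lower among 33 genes (median 0.11). That was 3.03% each way, beside 1.39% of all genes higher and 2.88% lower.

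S phase genes did not share that order. They summed to 3746, 3112 and 3143 CPM in the mutant libraries, against 3066 CPM in WT, at 1.22 (1.16–1.29), 1.02 (0.971–1.06) and 1.025 (0.981–1.07) times WT, so the interval stayed above 1 only in the miR-128 mutant. The G2/M sum was 1.101, 1.25 (1.21–1.29) and 1.32 (1.28–1.36) times WT in erythroid cells and 0.870, 1.02 and 1.04 times in the other barcodes. The median log2 ratio of the G2/M genes was 0.11, 0.45 and 0.66 in erythroid cells and -0.22, 0.24 and 0.41 in the others. By this median, G2/M genes of both g3UTR libraries were thus higher outside the erythroid cells too, though less so. Of the S phase genes, 0 of 28 passed 2-fold for the miR-128 mutant library, 0 of 34 for the csnk1a1 g3UTR library and 2 of 33 for the jag1b g3UTR library (casp8ap2 and pola1, or 6.06%, beside 10.7% of all genes). Between the g3UTR libraries no S phase (38) or G2/M gene (44) passed 2-fold. ccnd1, the cyclin D1 gene, had 412, 461 and 602 CPM, against 392 CPM in WT (1.53 in jag1b g3UTR).

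Few target genes of the signalling pathways that the study names had enough UMIs to compare in erythroid cells. The 12 Notch target genes summed to 62.5, 35.3 and 40.9 CPM, against 80.7 CPM in WT, with ratios of 0.774 (0.520–1.14), 0.437 (0.314–0.610) and 0.507 (0.368–0.701). These sums rest on few counts, 44, 78 and 89 UMIs in all, against 73 in WT, of which her9 gave 29 and her6 19. The single gene with enough UMIs to compare, her9, was past 2-fold lower in csnk1a1 g3UTR, where 4.19% of all genes were. The 12 Wnt target genes summed to 463, 516 and 688 CPM, against 473 CPM in WT, at 0.978, 1.09 and 1.45 times WT. ccnd1, given above, made up most of this Wnt sum in every library. In the other barcodes the Wnt sum was lower, at 202, 230 and 282 CPM, against 194 CPM in WT. The same Wnt sum was 1.45 times WT in the other barcodes of jag1b g3UTR, so that difference was as large outside the red cells. For Notch targets the other barcodes gave 0.925, 1.02 and 1.02.

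Cells with more globin also held more of the other red cell transcripts in every library. The limits of the 4 bins were at 12.2%, 23.0% and 34.8% of UMIs from globin, with 30, 35 and 22 cells within 1 percentage point of these limits. The highest bin held 33 miR-128 mutant cells (47.8%), 61 csnk1a1 g3UTR cells (29.5%), 45 jag1b g3UTR cells (14.7%) and 26 WT cells (33.8%), and the lowest held 10, 50, 79 and 26 cells. Fewer genes were detected in the highest bin, with medians of 1532, 1935, 1877 and 1629.5 genes, against 2547, 2355, 1923 and 2685 in the lowest. Globin share is a gradient cut at chosen limits and these bins are not cell types.

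In all 4 libraries, 60 of 4787 genes (1.25%) were at least 2-fold higher and 76 (1.59%) at most 0.5-fold in the highest against the lowest bin, as CPM of non-globin UMIs. With globin left in the total the counts were 8 and 492, since globin then takes up UMIs in the highest bin by construction. With bins set within each library the counts were 52 and 90, of which 37 and 56 were shared with those above.

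Among the higher genes, tspo, a mitochondrial membrane protein gene, had 1203 CPM in the highest and 93.0 CPM in the lowest bin of the miR-128 mutant, 1373 and 133 in csnk1a1 g3UTR cells, 1312 and 163 in jag1b g3UTR and 1486 and 82.1 in WT. hemgn had 1512 and 163 CPM in the miR-128 mutant, 1216 and 110 in csnk1a1 g3UTR cells, 1285 and 170 in jag1b g3UTR and 1744 and 123 in WT. cahz had 1640 and 380 CPM, 2056 and 382, 2121 and 429, and 1780 and 362 in the same libraries. In each library these genes were thus several-fold higher in the cells with the most globin. blvrb, nt5c2l1, tmod4, plac8l1, ank1a, zgc:56095 and cdc25b completed the leading 10.

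The lower genes were led by si:ch211-214p16.1 and ptmaa. ptmaa, a prothymosin gene of growing cells, had 24.9 CPM in the highest and 178 CPM in the lowest bin of the miR-128 mutant, 11.84 and 86.2 in csnk1a1 g3UTR cells, 9.16 and 185 in jag1b g3UTR and 17.8 and 295 in WT. mpx, the neutrophil myeloperoxidase gene, had 35.6 and 248 CPM in the miR-128 mutant, 3.38 and 74.4 in csnk1a1 g3UTR cells, 3.05 and 239 in jag1b g3UTR and 89.0 and 408 in WT. The neutrophil list as a whole did not share this in csnk1a1 g3UTR, where it summed to 147 CPM in the highest and 153 CPM in the lowest bin, nor did the endothelial list there, at 979 and 861.5 CPM. alpl, aqp8a.1, dlc1, fermt3b, crip1, elmo1 and gsta.1 were the others. Cells with 3 or more endothelial UMIs made up 40%, 34% and 50.6% of the lowest bin, against 46.2% in WT, and 0%, 14.8% and 24.4% of the highest, against 11.5% in WT. Without them, 49 genes were higher and 52 lower, 27 and 29 of them shared with the counts above. Fewer genes then reach the minimum of 100 UMIs over all cells that this comparison used.

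Haem genes were higher in the cells with the most globin in every library. The 11 haem genes without alas2 summed to 8496 CPM in the highest and 3301 CPM in the lowest bin of the miR-128 mutant, 9217 and 4762 in csnk1a1 g3UTR cells, 11033.3 and 4955 in jag1b g3UTR and 7546 and 4148 in WT. Red cell enzymes stood at 8767 and 3270 CPM, 8449 and 3170, 8183 and 2700, and 8427 and 3703 in the same order. Regulators had no common direction, at 2274 and 2162 CPM in the miR-128 mutant, 2343 and 2338 in csnk1a1 g3UTR cells, 3022 (2836–3216) and 2443 (2318–2572) in jag1b g3UTR and 1780 (1610–1963) and 2698 (2542–2861) in WT. The highest bin was thus above the lowest in jag1b g3UTR and below it in WT, with separate intervals. G2/M genes were higher in the highest bin of each library, at 6415 and 4866 CPM, 7813 and 5441, 9471 and 6230, and 7315 and 4599. Cells with the most globin therefore still held transcripts of division at this stage.

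**Figure D5:**
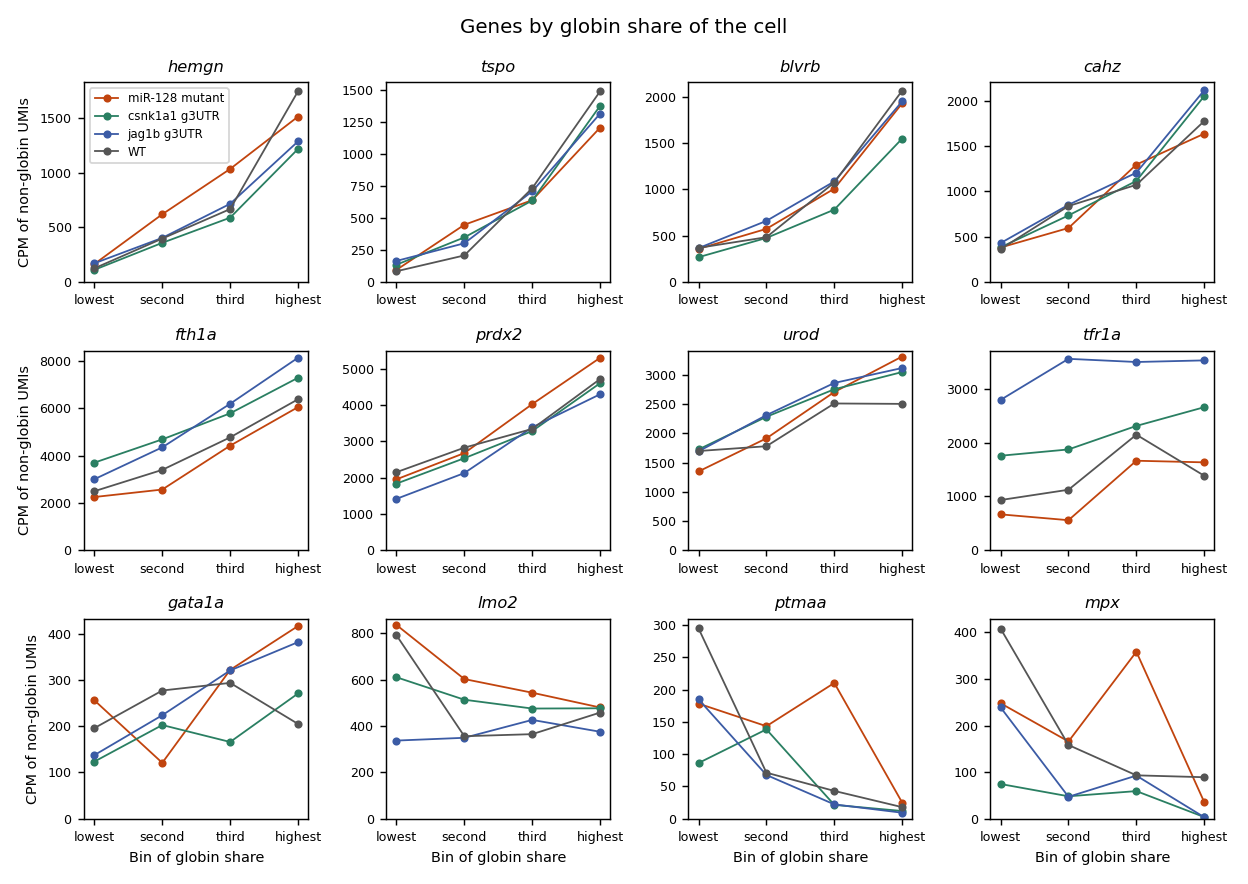
CPM of non-globin UMIs (y axis) of 12 genes, 1 per panel, in 4 bins of erythroid cells from the lowest to the highest globin share (x axis), with a line for each library. hemgn, tspo, blvrb and cahz climb towards the highest bin in all 4 libraries, while ptmaa and mpx are lowest there in each library.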

How the data were processed

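The authors aligned 10x Chromium 3′ reads with Cell Ranger (5.0.0 in the submitters' processing notes for all libraries, 5.0.0 or 6.0.1 in the file headers) to an annotation with corrected 3′ UTRs, and deposited filtered matrices of UMI counts for 36351 genes. The genome build is not given in the sources used here, so no coordinates or sequences are printed. Cells were chosen by the stated rule, and both the rule and the gene lists were chosen with earlier results of these data known. Counts were summed over erythroid cells per library and scaled to CPM of non-globin UMIs, or for globins to percent of all UMIs. Sums of 0 were set to a floor of 3 counts over the group. Doublets were handled by the limit of 35000 UMIs, with Scrublet (scanpy 1.11.5) as an alternative. Named genes were the 25 leading genes over other barcodes, the 10 highest and 10 lowest ratios per comparison past 2-fold and across the bins of globin share, the listed genes, and csnk1a1, jag1b, r3hdm1 and arpp21, and the exceptions are named as such. Python 3.11.15, numpy 2.4.6, scipy 1.17.1 and pandas 2.3.3 were used, and the scripts were tested on simulated data. Of 11 embryonic globins listed, 10 matched the files.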

Additional observations from a re-analysis of the deposited data

Results flagged for a closer look

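Several groups of barcodes lay outside the erythroid cells and still carried globin UMIs. Barcodes over 35000 UMIs that otherwise met the rule numbered 4 in the miR-128 mutant library, 3 in the csnk1a1 g3UTR library and 20 in WT, and keeping them moved the ratio of erythroid shares over WT to 2.96 (2.32–3.81) for the csnk1a1 g3UTR library and to 3.53 (2.80–4.48) for the jag1b g3UTR library. Barcodes with 2% or more of the rule's globins but fewer than 2 UMIs of alas2 and slc4a1a numbered 5 in the miR-128 mutant library, 25 in the csnk1a1 g3UTR library, 74 in jag1b g3UTR and 53 in WT. Their globin share had a median of 3.24%, 3.497%, 4.12% and 17.9%, which was highest in WT.

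Endothelial barcodes with 3 or more hbbe2 UMIs and none of hbae3 or hbbe3, each of them over 5% of the UMIs of erythroid cells in every library, numbered 129 in the miR-128 mutant library, 45 in the csnk1a1 g3UTR library, 51 in jag1b g3UTR and 164 in WT. All endothelial barcodes with 3 or more hbbe2 UMIs numbered 174, 174, 141 and 248 in the same order.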

How the results depend on the processing

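The ratios of erythroid shares of both g3UTR libraries over WT stayed above 1 under every alternative run, between 2.78 (csnk1a1 g3UTR, with 1 UMI of alas2 and slc4a1a enough) and 6.57 (jag1b g3UTR, barcodes thinned to 2000 UMIs, where the pair csnk1a1 g3UTR over jag1b g3UTR was 0.645). Without cells of 3 or more endothelial UMIs that pair turned to 1.04. For the miR-128 mutant over WT the ratio ran from 0.910 (1 UMI of alas2 and slc4a1a enough) to 1.56 (1.05–2.32, without cells of 3 or more endothelial UMIs). kel in jag1b g3UTR over WT turned to 0.834 with the mean of each cell's CPM, and mfap4 to 0.416 without its top cell. Counts of genes past 2-fold depended on the minimum of UMIs. For ratios of at least 2 and at most 0.5, a minimum of 20 gave 161 and 384 (miR-128 mutant), 406 and 561 (csnk1a1 g3UTR), 1157 and 317 (jag1b g3UTR) and 124 and 1029 (the g3UTR pair). A minimum of 100 gave 14 and 23, 59 and 79, 266 and 50, and 17 and 165, and a minimum of 1 gave 2774 and 2649, 990 and 5457, 2109 and 5400, and 2416 and 4285 in the same order. With the mean of each cell's CPM, the miR-128 mutant had 103 and 190, csnk1a1 g3UTR 327 higher, jag1b g3UTR 854 higher and the pair 69 higher. With the median of ratios, jag1b g3UTR had 172 lower and the pair 72 higher, and with all UMIs jag1b g3UTR had 73 lower. A globin threshold of 5% gave 120 lower in csnk1a1 g3UTR and 252 in the pair. Without cells of 3 or more endothelial UMIs, the lower genes numbered 25 in miR-128 mutant cells, 51 in csnk1a1 g3UTR cells, 49 in jag1b g3UTR and 199 in the pair. Settings that leave out cells also leave fewer genes at the minimum of UMIs.

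Of alternatives chosen after seeing the data, leaving out cells with 3 or more UMIs of other cell types gave 11 lower in miR-128 mutant cells, 238 higher and 66 lower in csnk1a1 g3UTR cells, and 19 higher and 137 lower in the pair. Leaving out the top cell of each gene gave 228 higher in csnk1a1 g3UTR, and no limit on UMIs gave 64 higher in the miR-128 mutant. The genes of the 5 erythroid lists past 2-fold were 12 to 18 in jag1b g3UTR over WT under every alternative run. In the miR-128 mutant they were 2 (globin threshold of 1%, mean of each cell's CPM), 0 (globin threshold of 5%, all UMIs, endothelial UMIs left out) or 3 (minimum of 20). In csnk1a1 g3UTR they were 1 (globin threshold of 5%, Scrublet, endothelial UMIs left out) or 9 (mean of each cell's CPM), and in the pair 0 (median of ratios), 2 (top cell left out), 3 (mean of each cell's CPM) or 4 (minimum of 20). S and G2/M genes past 2-fold were 8 (globin threshold of 5%, top cell left out) or 7 (5 or more UMIs of alas2 and slc4a1a) in csnk1a1 g3UTR, 9 in jag1b g3UTR (median of ratios), 1 (endothelial UMIs left out) or 4 (mean of each cell's CPM) in the miR-128 mutant and 1 in the pair (mean of each cell's CPM). With globin in the total, 8 genes were higher and 492 lower in the highest bin of globin share. Against progenitor barcodes alone, 144 genes were higher in erythroid cells and 23 lower in all 4 libraries, and 121 of those 144 were also higher against all other barcodes. The causes were not tested. Among the shares and counts that answer a comparison, 176 values stayed within the limits set, 73 moved and 1 turned, and among single genes 433 stayed, 41 moved and 2 turned. No paired analysis was possible because each group was 1 library. The 69 and 77 cells of the miR-128 mutant and WT limit every ratio over WT.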
